A study of Homo sapiens with 18 samples.

Results

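A set of 10 genes that oxidise, load or protect membrane lipids was followed in HT-29 and HCT116 cells, a pair of established human colorectal cancer lines, during treatment with erastin (ER). They are the lipoxygenases ALOX5, ALOX12, ALOX12B, ALOX15, ALOX15B and ALOXE3, the lipid loading enzymes ACSL4 and LPCAT3, the lipoxygenase partner PEBP1 and the lipid radical defence enzyme AIFM2. They were chosen by name, as 10 of the 33616 genes that have a transcript of their own in the array annotation. RNA was measured on 18 whole-transcriptome arrays, with 3 arrays in each of 6 groups. Each line gave cells treated with 2.5 µM ER for 4 h, cells treated for 24 h and untreated cells, and the single untreated group of a line served both times. Whether untreated cells received the solvent of ER is not given in the sources used here. The deposited values are log2 signals, so that a difference of 1 is a doubling of signal. The 3 arrays of a group came from independent experiments, and p-values measure the spread between those arrays.

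ER blocks the cystine importer of the cell and so starves it of glutathione, the cofactor with which GPX4 reduces lipid hydroperoxides. In the iron-dependent death called ferroptosis, polyunsaturated fatty acids in membrane phospholipids are oxidised. ACSL4 couples such fatty acids to coenzyme A, LPCAT3 inserts them into phospholipids, and lipoxygenases add oxygen to them. AIFM2, also known as FSP1, regenerates reduced coenzyme Q at membranes, where it traps lipid radicals.

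None of the 10 genes met the criteria of a differentially expressed transcript (DET) in any comparison of treated with untreated cells, and none met them in the difference between the responses of the lines. A DET had a fold change no smaller than 1.2 with an unadjusted p no larger than 0.005 in limma, a linear model fitted here to the arrays of a line. Among all 135750 transcripts, DETs made up 0.223% in HT-29 cells at 4 h, 0.377% in HT-29 cells at 24 h, 0.29% in HCT116 cells at 4 h and 1.24% in HCT116 cells at 24 h. After Benjamini-Hochberg adjustment over all transcripts 0 of 10 genes passed 0.05 in any of these comparisons. Of all transcripts, 0% passed at 4 h in either line, 0.00221% at 24 h in HT-29 cells and 0.0081% at 24 h in HCT116 cells. At an unadjusted p under 0.05, 0 of the 10 genes passed, against 3.51% and 3.69% of transcripts in HT-29 cells at 4 h and 24 h, and 3.85% and 8.53% in HCT116 cells. This last count was not stable, since in HCT116 cells at 24 h it became 1 without untreated replicate 3 and 2 without 24 h replicate 1 or 3. The methods' t-test, run on the same values but without the permutation step the methods also name, gave 0 DETs among the 10. The median log2 fold change of the 10 genes was 0 in HT-29 cells at 4 h and -0.04 at 24 h, beside medians over all transcripts of 0.04 and 0.02. In HCT116 cells it was -0.01 at 4 h and -0.1 at 24 h, beside -0.02 over all transcripts at both times. Between the times, 24 h against 4 h, 0 of 10 were DETs in either line, against 0.906% of all transcripts in HT-29 cells and 2.04% in HCT116 cells. By adjusted p, 0 of 10 passed there, against 0.0228% of transcripts in HT-29 cells and 0.0832% in HCT116 cells. At an unadjusted p under 0.05 it was 0 of 10 in HT-29 cells, against 6.12% of transcripts, and 1 of 10 in HCT116 cells, against 10.7%. With the replicate number as a block in the fit, 1 of the 10, ALOX12B, was a DET between the times in HCT116 cells. For 0 of the 10 genes did the treated and untreated HT-29 arrays not overlap, against 7.86% of transcripts at 4 h and 9.67% at 24 h.

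These tests had limited reach. With the standard errors (SE) measured, a gene of the 10 needed a log2 change of between 0.83 and 2.14 (median 1.13) to become a DET in HT-29 cells, and of between 0.68 and 1.23 (median 0.83) in HCT116 cells. These are sizes that an estimate had to reach with 3 arrays a group, not limits on the true change. A p above the threshold does not show that a gene stayed the same. Only fold changes larger than their own SE are given a direction below. There were 24 of these over all comparisons, and 21 of them moved by over 1.5 times when some single array was left out.

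**Figure D1:**
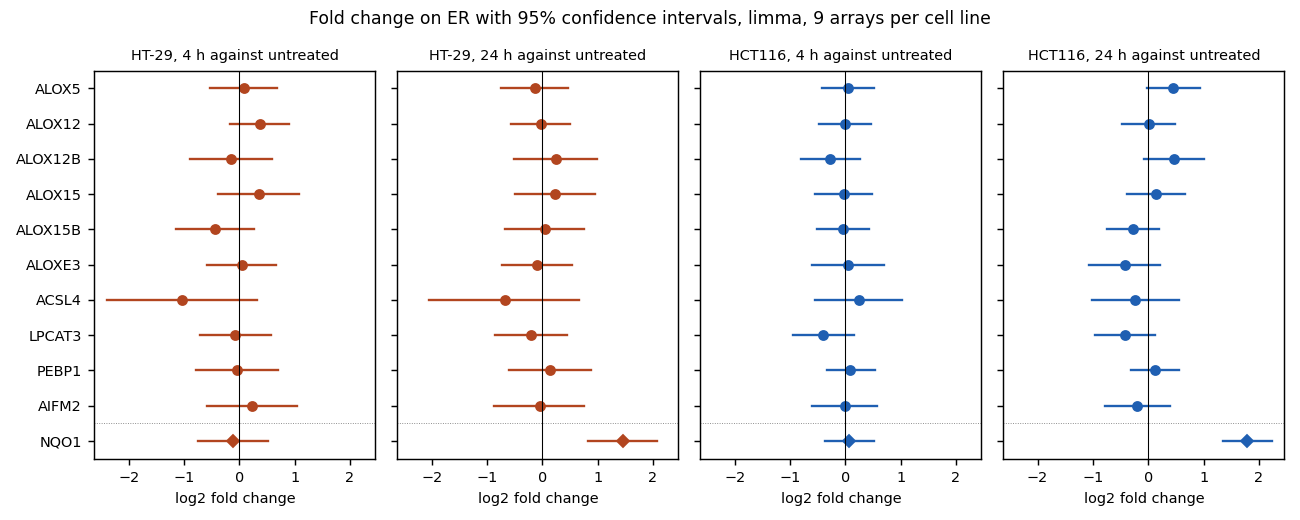
Log2 fold change (horizontal axis) of each of the 10 genes and of NQO1 in treated over untreated cells, with 1 panel for each line and time. Points are limma estimates and bars their 95% confidence intervals. Every interval of the 10 genes spans 0, whereas that of NQO1 lies above 0 at 24 h in both lines.

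The HT-29 arrays were not alike. In the 3 replicate 1 arrays labelled HT-29, LYZ (lysozyme) averaged 17.12 and KRT20, a keratin of differentiated colon epithelium, 14.15. In the replicate 2 and replicate 3 arrays with that label, LYZ averaged 10.34 and 11.24, and KRT20 averaged 8.68 and 9.02. HCT116 arrays averaged 5.68 to 6.03 for LYZ and 7.05 to 7.46 for KRT20. Of the other colon epithelium markers, EPCAM, CDH1, KRT8, KRT18 and VIL1 were also highest in HT-29 replicate 1. CDX2, KRT19 and CDH17 went the other way and were lowest in HT-29 replicate 1. They averaged 8.10, 14.93 and 5.19 there, 8.90, 15.01 and 5.24 in replicate 2, and 9.30, 15.30 and 6.07 in replicate 3. Of 36176 transcripts with a single gene, 101 lay more than 2 above every HCT116 array in HT-29 replicate 1, against 1 in replicate 2 and 2 in replicate 3. More than 2 below every HCT116 array there were 0 in each of replicates 1, 2 and 3. Over all transcripts, arrays of different lines correlated at 0.934 to 0.983, close to the 0.946 to 0.984 of arrays within a group. LYZ and KRT20 were above every HCT116 array in all 9 arrays labelled HT-29. The identity of the replicate 2 and replicate 3 arrays is in doubt even so, and that of the replicate 1 arrays was not tested. Each HT-29 response and each difference between the lines rests on these labels. With replicates 2 and 3 alone, 0 of the 10 genes were DETs in HT-29 cells against untreated cells. Apart from ACSL4, their log2 fold changes then ran from -0.57 (ALOX15B) to 0.46 (ALOX12) at 4 h and from -0.19 (ALOX12) to 0.43 (ALOX12B) at 24 h. The epithelial markers EPCAM (14.26 to 15.87 in HT-29 arrays and 14.43 to 15.35 in HCT116 arrays) and KRT8 (16.83 to 18.31 in HT-29 arrays and 16.47 to 17.55 in HCT116 arrays) were high in both lines. Not all colon epithelium markers were. CDH17 had a median of 5.49 in HT-29 arrays and 5.59 in HCT116 arrays, whereas the medians of whole arrays ran from 5.44 to 5.61. VIL1 had a median of 6.40 in HT-29 arrays and 5.59 in HCT116 arrays. Its HT-29 median pools unlike replicates, as VIL1 averaged 8.29 in replicate 1, 5.74 in replicate 2 and 6.22 in replicate 3. Leukocyte markers ran from CD14, with medians of 5.17 in HT-29 arrays and 5.07 in HCT116 arrays, to CD68, with medians of 7.67 in HT-29 arrays and 7.57 in HCT116 arrays. The table gives no detection call, so it is not known which of these signals exceeded background.

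The enzymes that load membranes are described first. ACSL4 (gene ID 2182, chrX:109641335-109733257, minus strand, GRCh38.p14) gave log2 signals of 10.83, 11.42 and 10.35 in untreated HT-29 cells. At 4 h of ER the HT-29 arrays read 11.15, 8.72 and 9.63, and at 24 h they read 11.14, 8.93 and 10.47. Replicate 2 was low at both times, replicate 1 was not, and the groups overlapped. The log2 fold change in HT-29 cells was -1.03 at 4 h (SE 0.62, 95% confidence interval -2.39 to 0.32, limma adjusted p = 1) and -0.68 at 24 h (SE 0.62, interval -2.04 to 0.67, adjusted p = 1). With replicates 2 and 3 alone the value at 4 h was -1.71 (SE 0.54, limma adjusted p = 0.427) and that at 24 h was -1.18 (SE 0.54). The 4 h value was -1.69 without the 4 h array of replicate 1 and -0.48 without the 4 h array of replicate 2. The 24 h value was -0.06 without the 24 h array of replicate 2, so that this single array carried nearly all of it. None of these settings made ACSL4 a DET.

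In HCT116 cells ACSL4 read 10.81, 10.88 and 10.17 when untreated, 11.23, 10.70 and 10.67 at 4 h, and 11.25, 10.32 and 9.59 at 24 h. These groups overlapped as well. Fold changes were within their SE, at 0.24 (SE 0.36) at 4 h and -0.24 (SE 0.36) at 24 h. The 4 h response of HT-29 cells minus that of HCT116 cells was -1.28 (SE 0.80, interval -2.95 to 0.39, limma adjusted p = 1). ACSL4 had the widest spread of the 10 genes. Its residual standard deviation (SD) within groups was 1.01 in HT-29 cells, above that of 98.1% of single-gene transcripts, and 0.56 in HCT116 cells, above that of 96.1%.

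**Figure D2:**
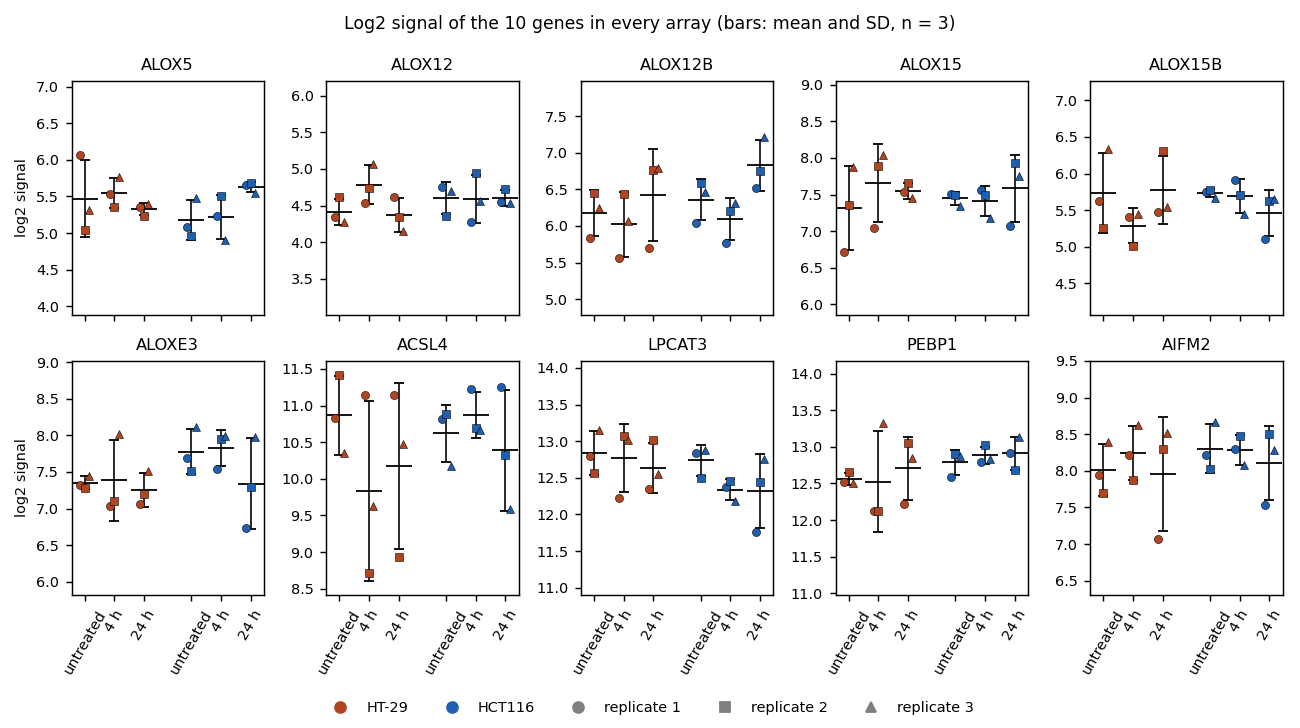
Log2 signal (vertical axis) of the 10 genes in every array, with HT-29 groups left of HCT116 groups and marker shape giving the replicate number. Horizontal bars and whiskers are the mean and SD of 3 arrays. ACSL4 in treated HT-29 cells ranged from 8.72 to 11.15, the widest of the panels, while the groups of the other genes lay close together and mostly overlapped.

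The spread of ACSL4 followed that of many other transcripts. The first principal component of the HT-29 arrays held 30.3% of the variance of transcripts. Across the 9 HT-29 arrays ACSL4 correlated with it at r = 0.889 and LPCAT3 at r = -0.853. In HCT116 cells, where the first component held 26.4%, ACSL4 correlated with it at r = 0.464. There ACSL4 followed the second component more (r = 0.718), which held 16.3%. The sign of a component is arbitrary, so the shared positive sign of ACSL4 in the lines carries no meaning. These correlations are descriptions across arrays of the same groups and normalization. After each line mean was subtracted, 1040 single-gene transcripts (2.87%) had r of at least 0.8 with ACSL4 over the 18 arrays, compared with 2 to 211 for each of the other 9 genes. At r of -0.8 or below there were 349 for LPCAT3, 59 for ACSL4 and 0 to 22 for each of the rest. The most like ACSL4 were DHX29 (r = 0.964), RAB11FIP2 (r = 0.963) and MTMR6 (r = 0.950). What set this shared spread was not tested.

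The start of ACSL4 is rich in CpG, and its sequence is shown because this gene varied most. Motifs were searched in RefSeq windows (GRCh38.p14) of 250 bases before and 50 after the start, and the 250 bases before it are printed, for ACSL4 chrX:109733258-109733507 on the minus strand. Capitals mark TGACG, the short form of the cAMP response element, read on both strands. It is present in 24.6% of 35116 promoters of the same length, and the full site TGACGTCA, in 1.85% of them, is not in the ACSL4 window.
ACSL4: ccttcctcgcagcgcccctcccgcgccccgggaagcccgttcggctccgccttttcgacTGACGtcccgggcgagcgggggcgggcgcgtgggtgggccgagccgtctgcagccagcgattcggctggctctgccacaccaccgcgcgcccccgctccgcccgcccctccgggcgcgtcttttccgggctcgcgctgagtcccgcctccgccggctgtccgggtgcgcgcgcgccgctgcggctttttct
The window holds 77.7% G and C and 51 CpG pairs, against medians of 58.7% and 14 over all promoters. A second transcript cluster at this locus is annotated to both KCNE5 and ACSL4 and was not counted as a transcript of ACSL4. In HCT116 cells it read 6.04, 6.04 and 6.20 at 4 h, against 5.23, 5.84 and 5.37 in untreated cells. Its log2 fold change was 0.61 (SE 0.23, limma adjusted p = 1), and which of the 2 genes its probes read cannot be told apart.

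LPCAT3 (gene ID 10162, chr12:6976185-7018476, GRCh38.p14), the acyltransferase that places arachidonate into phospholipids, read 12.84, 12.50 and 12.88 in untreated HCT116 cells. At 4 h of ER its HCT116 values were 12.37, 12.46 and 12.19, each below every untreated array. At 24 h they were 11.76, 12.44 and 12.76, which overlapped the untreated arrays. The log2 fold change was -0.40 at 4 h (SE 0.25, interval -0.95 to 0.15, limma adjusted p = 1) and -0.42 at 24 h (SE 0.25, interval -0.97 to 0.13, adjusted p = 0.69). Without the 24 h array of replicate 1 the 24 h value was -0.14, and without that of replicate 3 it was -0.64. Arrays that do not overlap at 4 h in HCT116 cells were found for 10% of all transcripts, and for 1 of the 10 genes. In HT-29 cells LPCAT3 read 12.80, 12.56 and 13.15 untreated, 12.23, 13.07 and 13.01 at 4 h, and 12.35, 13.01 and 12.55 at 24 h, and its fold changes of -0.07 and -0.20 were within an SE of 0.30. LPCAT3 ran opposite to ACSL4 across arrays (r = -0.673, n = 18, line means subtracted), the lowest r of any pair among the 10 genes. The level of LPCAT3 was high in the 2 HT-29 arrays where ACSL4 was lowest.

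**Figure D3:**
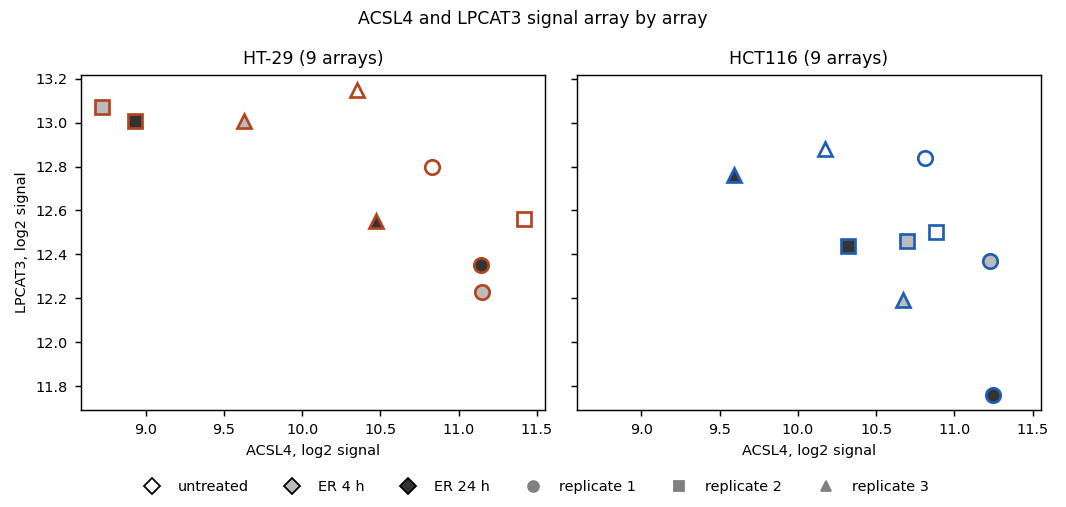
Log2 signal of LPCAT3 (vertical axis) against that of ACSL4 (horizontal axis), 9 arrays in each panel. Fill gives the time of ER and shape the replicate number. In HT-29 cells the arrays with ACSL4 at 8.72 and 8.93 had LPCAT3 at 13.07 and 13.01, and the array with ACSL4 at 11.15 had LPCAT3 at 12.23.

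PEBP1 (gene ID 5037, chr12:118136124-118145584) encodes a scaffold protein that binds 15-lipoxygenase and directs it towards phospholipids. Its signal was the steadiest of the 10 in HCT116 cells, with a residual SD of 0.18. HCT116 arrays read 12.59, 12.90 and 12.87 untreated, 12.79, 13.02 and 12.84 at 4 h, and 12.92, 12.68 and 13.13 at 24 h. The groups overlapped, and the log2 fold changes of 0.09 (interval -0.34 to 0.53) and 0.12 (interval -0.31 to 0.55) were within their SE of 0.20. In HT-29 cells it read 12.52, 12.66 and 12.51 untreated, 12.12, 12.13 and 13.32 at 4 h, and 12.22, 13.05 and 12.85 at 24 h. Replicate 3 stood above the other arrays at 4 h. A further transcript labelled PEBP1, without a gene ID in the annotation, had a mean of 9.35 and fold changes of between -0.10 and 0.17 in treated over untreated cells of either line, all within their SE.

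The lipoxygenases divide by the carbon of arachidonate they oxidise and by tissue. ALOX15 and ALOX15B encode 15-lipoxygenases, ALOX12 the platelet 12-lipoxygenase and ALOX5 the enzyme that starts leukotriene synthesis in leukocytes. ALOX12B and ALOXE3 act in sequence on linoleate of skin ceramides. Except for ALOX5 all lie on the short arm of chromosome 17, where ALOX15B, ALOX12B and ALOXE3 are neighbours, with 23.5 kb between the first pair and 8.2 kb between the second. Their mean signals over the 18 arrays were 7.49 for ALOX15, 5.61 for ALOX15B, 4.56 for ALOX12, 5.40 for ALOX5, 6.32 for ALOX12B and 7.49 for ALOXE3. Signals of different probes cannot be ranked, but those of ALOX5, ALOX12 and ALOX15B lay at or near the array medians of 5.44 to 5.61 or below them.

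ALOX15 (gene ID 246, chr17:4630919-4641678) read 6.72, 7.36 and 7.87 in untreated HT-29 cells, 7.05, 7.89 and 8.04 at 4 h, and 7.54, 7.66 and 7.45 at 24 h. In HCT116 cells it read 7.51, 7.49 and 7.34 untreated, 7.56, 7.50 and 7.18 at 4 h, and 7.07, 7.93 and 7.75 at 24 h. All groups of a line overlapped. The fold change in HT-29 cells at 4 h was 0.35 (SE 0.33, interval -0.38 to 1.08), and that in HCT116 cells at 4 h was -0.03 (SE 0.24, interval -0.55 to 0.49). ALOX15B (gene ID 247, chr17:8039059-8049134) was lower in each HCT116 array at 24 h, at 5.10, 5.63 and 5.65, than in the untreated arrays, at 5.75, 5.78 and 5.67. The fold change was -0.28 (SE 0.21, interval -0.74 to 0.19, limma adjusted p = 0.775), and replicate 1 was the lowest array. In HT-29 cells ALOX15B read 5.47, 6.31 and 5.54 at 24 h, against 5.41, 5.01 and 5.45 at 4 h. These arrays did not overlap, and the fold change of 0.48 had an SE of 0.32 (limma adjusted p = 0.884). Between the times in HT-29 cells, arrays that do not overlap were found for 10.2% of all transcripts and for 1 of the 10 genes.

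ALOX12 (gene ID 239, chr17:6996049-7010754) read 4.34, 4.62 and 4.28 in untreated HT-29 cells, 4.54, 4.74 and 5.07 at 4 h, and 4.62, 4.35 and 4.16 at 24 h. Its fold change at 4 h, 0.37 (SE 0.24, interval -0.16 to 0.90), exceeded its SE, and the groups overlapped. In HCT116 cells the 9 arrays ran from 4.28 to 4.94, and the fold changes were -0.01 at 4 h and 0.01 at 24 h (SE 0.22).

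ALOX5 (gene ID 240, chr10:45374216-45446117) has a pair of transcripts. The transcript with the higher signal, which stands for the gene here, has the symbol but no gene ID in the annotation. In HCT116 cells it read 5.09, 4.96 and 5.48 untreated, 5.23, 5.51 and 4.91 at 4 h, and 5.66, 5.68 and 5.55 at 24 h. Each 24 h array was above all 3 untreated arrays. The fold change at 24 h was 0.45 (SE 0.22, interval -0.02 to 0.93, limma adjusted p = 0.603), the lowest adjusted p of the 10 genes in this comparison. The other ALOX5 transcript, which carries the gene ID and a mean of 4.23, had a fold change of -0.28 (SE 0.26) in the same comparison, so the pair differed in sign. In HT-29 cells the first transcript read 6.06, 5.04 and 5.31 untreated, 5.53, 5.36 and 5.76 at 4 h, and 5.35, 5.24 and 5.40 at 24 h. Its HT-29 fold changes of 0.08 and -0.14 were within an SE of 0.28. The difference between the 24 h responses, HT-29 minus HCT116, was -0.59 (SE 0.35, interval -1.32 to 0.14, limma adjusted p = 1). Arrays that do not overlap at 24 h in HCT116 cells were found for 12.8% of all transcripts and for 2 of the 10 genes, ALOX5 and ALOX15B.

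In the main limma fits ALOX12B (gene ID 242, chr17:8072636-8087716) gave the only unadjusted p under 0.05 among the 10 genes, and it lay between the times of ER. Other settings with all arrays included also gave such a p for ALOX5 and LPCAT3 in HCT116 cells, as listed in the closing section. In HCT116 cells ALOX12B read 6.52, 6.75 and 7.21 at 24 h, against 5.77, 6.21 and 6.31 at 4 h, so that each 24 h array was above each 4 h array. The log2 fold change was 0.73 (SE 0.25, interval 0.20 to 1.27, limma adjusted p = 0.308), which is not a DET in the main fit. With the replicate number as a block in the fit ALOX12B was a DET here. Whether these numbers pair the arrays is not settled. In this comparison 16% of all transcripts had arrays that do not overlap, as did 2 of the 10 genes, ALOX12B and ALOX5. Untreated HCT116 arrays read 6.04, 6.58 and 6.46, and the fold change at 24 h over untreated was 0.47 (SE 0.25, interval -0.07 to 1.00, limma adjusted p = 0.64). In HT-29 cells ALOX12B read 5.84, 6.45 and 6.25 untreated, 5.56, 6.44 and 6.07 at 4 h, and 5.70, 6.77 and 6.79 at 24 h. Replicate 1 was lowest in every HT-29 and HCT116 group. The HT-29 fold change at 24 h over 4 h was 0.39 (SE 0.34, interval -0.35 to 1.14). The difference between the 24 h responses of the lines was -0.23 (SE 0.44).

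The ALOX12B start is shown for contrast with that of ACSL4, as it is poor in CpG. The 250 bases before it lie at chr17:8087717-8087966 on the minus strand (RefSeq, GRCh38.p14). Capitals mark the CCAAT box, searched on both strands and present in 34.6% of all promoters.
ALOX12B: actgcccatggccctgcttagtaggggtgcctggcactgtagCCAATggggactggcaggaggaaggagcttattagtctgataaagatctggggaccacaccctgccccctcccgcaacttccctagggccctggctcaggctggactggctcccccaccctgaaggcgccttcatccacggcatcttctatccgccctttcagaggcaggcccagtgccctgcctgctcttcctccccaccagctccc
The window holds 5 CpG pairs, against 51 for ACSL4, and 63% G and C. ALOXE3 (gene ID 59344, chr17:8095900-8118916), whose product takes over the hydroperoxide made by ALOX12B, read 6.74, 7.30 and 7.98 in HCT116 cells at 24 h, against 7.69, 7.52 and 8.12 in untreated cells. Its fold change was -0.43 (SE 0.30, interval -1.08 to 0.21, limma adjusted p = 0.735), with the lowest array again replicate 1. At 4 h the HCT116 arrays read 7.54, 7.95 and 7.99 (fold change 0.05, SE 0.30). In HT-29 cells ALOXE3 read 7.32, 7.28 and 7.45 untreated, 7.04, 7.10 and 8.02 at 4 h, and 7.06, 7.20 and 7.51 at 24 h, with fold changes of 0.04 and -0.09 (SE 0.29). ALOXE3 correlated with the first principal component of the HCT116 arrays at r = -0.931 (n = 9), on which the 24 h array of replicate 1 had the highest score, 151.

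AIFM2 (gene ID 84883, chr10:70112271-70132825) is reported as a target of the transcription factor NRF2, and so is NQO1, another reductase of quinones. The 250 bases before its start, chr10:70132826-70133075 on the minus strand (RefSeq, GRCh38.p14), are shown because they hold the core of the antioxidant response element that NRF2 binds. The core was searched as TGACNNNGC on both strands and occurs in 13.3% of all promoters. Capitals mark the match GCTGAGTCA, which begins 22 bases before the start and reads the core on the reverse strand. It also holds the AP-1 site TGAGTCA, present in 4.95% of promoters.
AIFM2: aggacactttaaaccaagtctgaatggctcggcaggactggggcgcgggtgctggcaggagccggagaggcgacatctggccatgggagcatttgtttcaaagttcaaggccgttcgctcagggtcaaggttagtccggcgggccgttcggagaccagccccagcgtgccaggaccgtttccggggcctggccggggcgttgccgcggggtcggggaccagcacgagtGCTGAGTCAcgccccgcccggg
The window of NQO1 holds no match to that core, which says only that these letters are not within its 300 bases. AIFM2 read 7.94, 7.70 and 8.40 in untreated HT-29 cells, 8.22, 7.88 and 8.62 at 4 h, and 7.07, 8.30 and 8.51 at 24 h. In HCT116 cells it read 8.21, 8.03 and 8.67 untreated, 8.30, 8.48 and 8.08 at 4 h, and 7.54, 8.50 and 8.28 at 24 h. In both lines the 24 h array of replicate 1 was the lowest, and all groups overlapped. The fold change at 24 h was -0.05 in HT-29 cells (SE 0.37, interval -0.87 to 0.76, limma adjusted p = 1) and -0.20 in HCT116 cells (SE 0.27, interval -0.78 to 0.39, adjusted p = 0.897). At 4 h it was 0.22 in HT-29 cells (SE 0.37) and -0.01 in HCT116 cells (SE 0.27). A further AIFM2 transcript without a gene ID in the annotation, with a mean of 6.45, had a fold change of 0.54 (SE 0.33, interval -0.18 to 1.26, limma adjusted p = 1) in HT-29 cells at 4 h and 0.06 (SE 0.23) in HCT116 cells at 24 h. With HT-29 replicates 2 and 3 alone the 4 h value of this transcript was 1.05 (SE 0.31, limma adjusted p = 0.4). The 4 h response of HT-29 cells minus that of HCT116 cells was 0.73 (SE 0.41, limma adjusted p = 1) for it, and with HT-29 replicates 2 and 3 alone 1.24 (SE 0.36, adjusted p = 0.515), which met the DET criteria.

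NQO1, from the list of lipid radical defence genes treated further on, rose at 24 h in both lines. In HCT116 cells NQO1 read 15.82, 15.55 and 15.64 at 24 h, against 13.64, 13.99 and 14.01 in untreated cells. The log2 fold change was 1.79 (SE 0.20, interval 1.35 to 2.23, limma adjusted p = 0.0148). In HT-29 cells it read 15.50, 15.83 and 15.97 at 24 h, against 14.82, 13.98 and 14.13 in untreated cells, a DET with a fold change of 1.45 (SE 0.29, interval 0.82 to 2.08, limma adjusted p = 0.727). For the transcript that stands for AIFM2, the intervals at 24 h lay below those of NQO1 in the same line. Their upper ends were 0.76 in HT-29 cells and 0.39 in HCT116 cells. The further AIFM2 transcript had an interval of -0.37 to 1.07 in HT-29 cells at 24 h (fold change 0.35), which overlapped that of NQO1. Its interval in HCT116 cells, -0.44 to 0.56, did not. At 4 h NQO1 had fold changes of -0.12 (SE 0.29) in HT-29 cells and 0.07 (SE 0.20) in HCT116 cells. NQO1 remained a DET in HCT116 cells at 24 h in all 20 alternative settings, and in 20 of 21 in HT-29 cells. Its adjusted p in HCT116 cells was above 0.05 when any untreated or 24 h array of HCT116 was left out. It was then 0.123, 0.102 and 0.0783 without untreated replicates 1, 2 and 3, and 0.0835, 0.0586 and 0.0705 without 24 h replicates 1, 2 and 3. Settings that kept every array gave 0.569 with the methods' t-test and 0.132 in limma with only the groups compared. The other settings with every array kept it under 0.05.

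Other genes of the same pathways were read from 5 lists, of which 48 genes were analysed here. At 4 h 0 of the 48 were DETs in either line. At 24 h 5 rose and 0 fell in HCT116 cells, against DETs at 1.24% of all transcripts, and 1 rose and 1 fell in HT-29 cells, against 0.377%. Most transcripts have no gene in the annotation, so these shares are an unlike background. In a fit of the 36176 single-gene transcripts alone, 855 were DETs in HCT116 cells at 24 h and 246 in HT-29 cells. With single arrays left out, the 5 in HCT116 cells became 2 (untreated replicate 3, either of 4 h replicates 1 and 2, and 24 h replicate 1) or 3 (4 h replicate 3 and 24 h replicate 2). The 2 in HT-29 cells became 1 without untreated replicate 1, untreated replicate 3 or 24 h replicate 2. These counts cover all 48 genes, so a gene that entered can offset a gene that lost its call. DHCR7 also lost its call without HT-29 24 h replicate 3, and ACSL5 and GNPAT theirs without HCT116 untreated replicate 1. The median log2 fold change of the 48 at 24 h was -0.05 in HT-29 cells and -0.06 in HCT116 cells.

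Among the eicosanoid partners, which release arachidonate or process lipoxygenase and cyclooxygenase products, 2 of 9 rose in HCT116 cells at 24 h. LTA4H, the leukotriene A4 hydrolase that acts after ALOX5, read 12.88, 12.87 and 12.08 at 24 h, against 11.44, 11.75 and 11.24 in untreated cells (fold change 1.13, SE 0.24, limma adjusted p = 0.245). PLA2G4A, the cytosolic phospholipase that frees arachidonate, read 8.69, 8.63 and 8.22 at 24 h, against 7.89, 7.91 and 7.30 in untreated cells (fold change 0.81, SE 0.23, limma adjusted p = 0.375). Neither group of arrays overlapped the other. In HT-29 cells at 24 h 0 of the 9 were DETs, with fold changes of 0.40 (SE 0.30) for LTA4H and -0.01 (SE 0.42) for PLA2G4A. PLA2G6, a calcium-independent phospholipase, rose between the times in HT-29 cells, with 7.20, 8.04 and 7.55 at 24 h, against 6.49, 6.42 and 6.97 at 4 h (fold change 0.97, SE 0.28, limma adjusted p = 0.539). Both phospholipase calls were narrow. That of PLA2G4A was lost without untreated replicate 3 (fold change 0.62, limma adjusted p = 0.715), any 4 h array (0.81, adjusted p = 0.452 to 0.494), 24 h replicate 1 (0.73, adjusted p = 0.566) or 24 h replicate 2 (0.76, adjusted p = 0.489). That of PLA2G6 was lost without any untreated array (fold change 0.97, limma adjusted p = 0.645 to 0.702), 4 h replicate 1 (0.90) or 2 (0.87), or 24 h replicate 2 (0.75) or 3 (1.00).

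Of 13 measured genes for the synthesis and esterification of polyunsaturated fatty acids, 1 was a DET. ACSL5, a long-chain acyl-CoA synthetase related to ACSL4, read 14.11, 13.62 and 13.78 in HCT116 cells at 24 h, against 12.84, 13.31 and 13.17 in untreated cells (fold change 0.73, SE 0.21, limma adjusted p = 0.387). In HT-29 cells its fold change was 0.03 (SE 0.44). Of 4 genes of ether lipid synthesis, GNPAT, which starts that pathway in peroxisomes, read 11.12, 10.87 and 10.45 in HCT116 cells at 24 h, against 9.85, 10.30 and 9.86 in untreated cells (fold change 0.81, SE 0.22, limma adjusted p = 0.365). Single arrays decided both calls. ACSL5 lost its call without untreated replicate 1 (fold change 0.60) or 3 (0.76), any 4 h array (0.73), or 24 h replicate 1 (0.59) or 3 (0.76), with limma adjusted p = 0.339 to 0.645. GNPAT lost its call without untreated replicate 1 (fold change 0.73) or 3 (0.74), 4 h replicate 1 or 2 (0.81), or 24 h replicate 1 (0.66) or 2 (0.78), with limma adjusted p = 0.473 to 0.689. None of the 5 measured genes of a further list, NOX1, NOX4, CYBB, DUOX2 and CYB5R1, was a DET at 24 h in either line.

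The lipid radical defence list, with 17 measured genes, held NQO1 as its DET in HCT116 cells and NQO1 and DHCR7 in HT-29 cells at 24 h. DHCR7, which removes 7-dehydrocholesterol, a sterol that traps lipid radicals, read 13.83, 13.09 and 13.53 in HT-29 cells at 24 h, against 14.65, 14.26 and 14.64 in untreated cells. It fell by 1.03 on the log2 scale (SE 0.27, limma adjusted p = 1). DHODH, which reduces coenzyme Q in mitochondria, fell between the times in HT-29 cells, with 9.27, 9.86 and 10.05 at 24 h, against 10.47, 10.55 and 10.83 at 4 h (fold change -0.89, SE 0.25, limma adjusted p = 0.539). Of the 17, 5 had a positive fold change in HT-29 cells at 24 h and the median was -0.26, beside 0.02 over all transcripts. In HCT116 cells at 24 h 5 were positive and the median was -0.24, beside -0.02 over all transcripts. These values include DHCR7, whose product removes a radical trap, so a fall is not always a loss of defence. DHCR7 lost its call without untreated replicate 1 or 3 (fold change -0.97), or 24 h replicate 2 (-0.84) or 3 (-1.06), and with replicates 2 and 3 alone (-1.14), each with limma adjusted p = 1. DHODH lost its call without any single array of the line except 24 h replicate 3, with fold changes of -0.96 to -0.66 (limma adjusted p = 0.286 to 0.899).

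**Figure D4:**
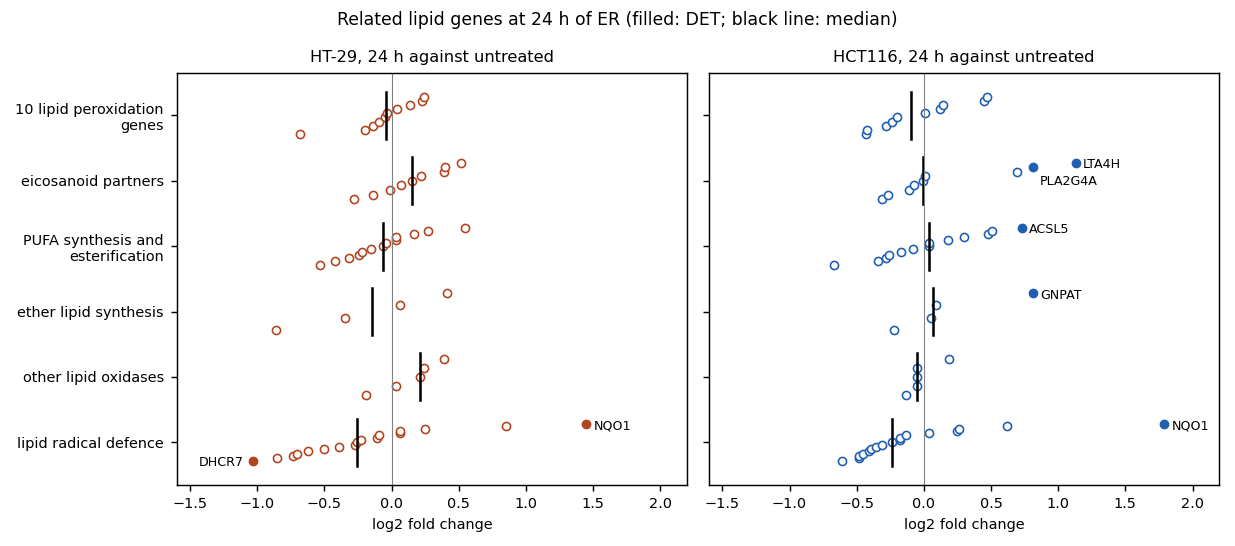
Log2 fold change at 24 h of ER over untreated cells (horizontal axis) for the 10 lipid peroxidation genes and the 48 measured genes of 5 related lists, with HT-29 cells on the left and HCT116 cells on the right. Each point is a gene, filled points are DETs and black lines are medians. The 10 genes hold no filled point and lie between -0.68 and 0.47, whereas NQO1 stands at 1.45 and 1.79.

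Between the lines, the levels of the 10 genes overlapped. HT-29 and HCT116 arrays were normalized apart, so levels are given with no test. ACSL4 ran from 8.72 to 11.42 (median 10.47) in the 9 HT-29 arrays and from 9.59 to 11.25 (median 10.70) in the 9 HCT116 arrays. The widest gaps between line means, HT-29 minus HCT116, were -0.33 for ACSL4, -0.32 for ALOXE3 and 0.28 for LPCAT3. Without HT-29 replicate 1 they were -0.70 for ACSL4, -0.22 for ALOXE3 and 0.43 for LPCAT3. For 0 of 10 genes did all HT-29 arrays lie on a single side of all HCT116 arrays, as happened for 0.0309% of all transcripts. With HT-29 replicate 1 left out it happened for 0 of the 10 and for 0.0913% of transcripts, and after quantile normalization of all 18 arrays for 0 of the 10 and for 0.0302%. In the difference between the responses of the lines, 0 of the 10 genes were DETs, against 0.277% of all transcripts at 4 h and 0.322% at 24 h. By adjusted p in limma 0 of 10 and 0% of all transcripts passed, and at an unadjusted p under 0.05 it was 0 of 10, against 3.78% and 3.6% of transcripts. A difference in response of between 0.99 and 2.54 on the log2 scale (median 1.31) would have been needed.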

How the data were processed

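RNA of HT-29 and HCT116 cells was hybridised to Affymetrix whole-transcriptome arrays. The authors deposited 1 table of normalized log2 signal, with 138745 rows and 18 columns. Per the methods they used robust multiarray averaging for each line on its own, mean summarization to transcripts and log2 transformation, and they obtained data with the maker's software as well. Which of these made the deposited table is not given in the sources used here. Values ran from 2.31 to 19.92, above the 16 of a 16-bit scanner on the log2 scale, so the scale holds a step that is not described. Depth does not apply to arrays, and the number of arrays limits the precision.

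Here 2995 control features were left out and 135750 transcripts tested with limma 3.58.1 (R 4.3.3), in 1 fit of the 9 arrays of a line and, for differences between lines, 1 fit of the 18 arrays. Intervals are 95% intervals from limma. The platform annotation gave a single gene for 36176 transcripts, several for 1119 and none for 98455. Of these gene IDs 24543 matched RefSeq (GRCh38.p14) and 0 names changed. Where a gene had several transcripts, that with the highest mean over 18 arrays was used. The code was tested on simulated data. The 10 genes, the lists and the tests were chosen with earlier results of these data known. Named genes were all 10, up to 4 DETs of each list and comparison, and the 3 transcripts most like the member with the widest spread, while KRT20, LYZ and other markers, and the KCNE5 transcript, were named after their values were seen. Promoters of 300 bases came from RefSeq for 7 of the 10 genes. Alternatives were the methods' t-test (its permutation step was not run), the arrays in the fit, the replicate block, the normalization, filters, the transcript rule, limma's settings and leaving out arrays. Arrays of a group correlated at 0.946 to 0.984, those of different lines at 0.934 to 0.983.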

Additional observations from a re-analysis of the deposited data

How the results depend on the processing

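Of 80 log2 fold changes of the 10 genes (8 comparisons each), 24 exceeded their SE, and 0 of these changed sign over 12 alternative settings and 18 left-out arrays. Of the other 56, 45 changed sign in some setting, up to a size of 0.44. The count of DETs among the 10 was 0 in each setting and comparison except HCT116 cells at 24 h against 4 h, where the replicate block gave 1, ALOX12B (limma adjusted p = 0.177). These counts cover the transcript that stands for each gene. Of the further transcripts, that of AIFM2 was a DET in the difference of the 4 h responses with HT-29 replicates 2 and 3 alone. The lowest adjusted p of any of the 10 in any setting was 0.143. The count at an unadjusted p under 0.05 in HCT116 cells at 24 h over untreated cells, with 0, was 1 with the methods' t-test, quantile normalization, median centring, array weights and without untreated replicate 3 (ALOX5 in each), 1 with the replicate block (ALOX12B), and 2 without 24 h replicate 1 (ACSL4 and ALOX12B) or 24 h replicate 3 (ALOXE3 and LPCAT3). In HT-29 cells at 4 h it was 1 (ACSL4) with replicates 2 and 3 alone and without 4 h replicate 1. In HCT116 cells at 4 h it was 1 with the methods' t-test (LPCAT3, unadjusted p = 0.0479).

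Counts of DETs in the 5 related lists moved more. In HT-29 cells at 4 h, with 0, they were 1 with the methods' t-test and 1 in a single fit of all arrays. In HT-29 cells at 24 h, with 2, they were 0 with the methods' t-test, 1 in the fit of all arrays, 1 with replicates 2 and 3 alone, and 1 to 2 with single arrays left out. In HCT116 cells at 4 h, with 0, the methods' t-test gave 1. In HCT116 cells at 24 h, with 5, they were 1 with the methods' t-test, 2 with only the groups compared, 2 in the fit of all arrays, 3 after quantile normalization, 2 with array weights, and 2 to 5 with single arrays left out. The cause was not tested.

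Replicate numbers are shared by the groups of a line. Deviations of arrays with the same number correlated at r = -0.148 to 0.5 in HT-29 cells and -0.071 to 0.245 in HCT116 cells. Those with different numbers correlated at -0.407 to 0.264 and -0.351 to 0.201. In HT-29 cells 5 of 9 arrays, and in HCT116 cells 6 of 9, correlated best with their own number. These values do not settle whether the numbers pair the arrays, and the sources used here do not state it. The main fits held no replicate block. The replicate block moved no other count of DETs among the 10 genes, and no count of the lists against untreated cells, by over 1.5 times. With 3 arrays a group, an exact permutation test of a single gene cannot give a p below 0.1.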
